A study of Homo sapiens with 4 samples.

Results

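The regions described here are CTCF binding regions of K562 cells that held about the same place in the order of binding strength under aclarubicin and under daunorubicin. CTCF was mapped by chromatin immunoprecipitation and sequencing (ChIP-seq) in K562, a human erythroleukaemia cell line. The 4 libraries came from cells given aclarubicin or daunorubicin, each at 10 µM for 4 hours, with 2 biological replicates for each drug. Untreated cells were not analysed here, so every comparison sets 1 anthracycline against the other. Merging the 4 peak lists gave 13959 regions on chromosomes 1 to 22 and X, and 4121 of them held a peak in all 4 libraries. Within each library these shared regions were ranked by the authors' fold enrichment over background, on a scale from 0 (lowest fold) to 100 (highest fold). Members were selected on the fold: a region was a member if its mean percentile under daunorubicin and its mean percentile under aclarubicin differed by less than 20 points. By this rule 2491 of the 4121 shared regions were members, or 60.4%. Of the rest, 825 ranked at least 20 points higher under daunorubicin and 805 at least 20 points higher under aclarubicin. These 1630 regions are called movers below.

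CTCF is a DNA-binding protein with a row of zinc fingers that reads a long sequence motif. Together with the ring-shaped complex cohesin it holds many chromatin loops, and bound sites often lie at the borders of loop domains. In a ChIP-seq peak, the summit is the base with the most overlapping fragments and usually lies close to the motif. Both drugs are anthracyclines that slide between the base pairs of DNA. Daunorubicin also traps topoisomerase II on broken DNA, which aclarubicin is not known to do. Base sequences and gene annotation at the regions were not analysed here, so whether each summit lies on a CTCF motif is not known.

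The members covered the whole range of strength, from the strongest shared regions to the weakest. The median fold over members was 10.5 and 10.4 in aclarubicin replicates 1 and 2, and 7.98 and 8.90 in daunorubicin replicates 1 and 2. The median −log10 q was 50.4 and 52.2 in the aclarubicin libraries against 22.7 and 26.5 in the daunorubicin libraries. These folds and q values are the authors' own, scaled within each list, and are set side by side only as a description. In every library 2167 members had a −log10 q of at least 10, and 23 had a value below 5 in at least 1 library. The same counts were not made over all shared regions, so these describe the members only. The fragments over the summit, recovered from the fold and the p-value, had medians of 79 and 83 in the aclarubicin libraries, and of 43 and 45 in the daunorubicin libraries. A count of 79 has a 95% Poisson interval of 62.5 to 98.5 and a count of 43 one of 31.1 to 57.9, for counting error alone.

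**Figure D1:**
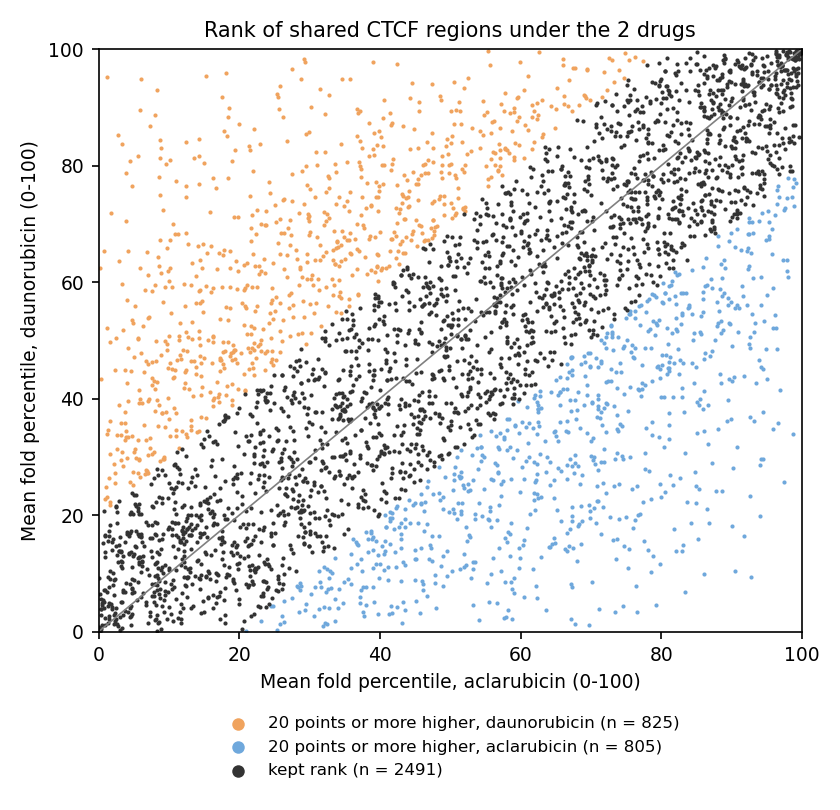
Each point is 1 of the 4121 shared regions, placed by its mean fold percentile under aclarubicin (x axis) and under daunorubicin (y axis), both on a scale from 0 to 100. The 2491 rank-keeping regions form a band along the diagonal that the rule itself draws, and 825 regions lie above it and 805 below it.

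Inside the band the difference between the drugs was mostly well under the limit. The median absolute difference was 8.08 points. It was below 5 points in 805 members and 10 points or more in 997. Slightly more members ranked higher under aclarubicin (1287) than under daunorubicin (1202), and 2 showed no difference. The edge of the band was not a gap in the data: 172 members differed by 18 to 20 points, and 163 shared regions by 20 to 22 points. Just inside it lay chr15:40613015-40613589, with percentiles of 15.1 and 26.4 under aclarubicin against 42.7 and 38.7 under daunorubicin, a difference of 19.98 points. Just outside it lay chr9:35790266-35790668, with 21.0 and 16.9 under aclarubicin and 39 and 39 under daunorubicin, a difference of 20.01 points. On the side of higher ranks under aclarubicin, the closest member was chr4:6682863-6683312. Its percentiles were 40.9 and 38.5 under aclarubicin against 19.0 and 20.6 under daunorubicin. The closest region past the limit was chr16:30198499-30199080, with 97.3 and 95.8 under aclarubicin and 95.7 and 57.4 under daunorubicin. At this last region daunorubicin replicate 1 ranked with the aclarubicin libraries, and replicate 2 alone took it out of the members.

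The spread between replicates gives the scale for a difference of 20 points. Of all shared regions, 88.3% had percentiles within 20 points of each other in the 2 aclarubicin replicates, and 74.1% in the 2 daunorubicin replicates. Between single libraries of different drugs the share was 55.6% (aclarubicin replicate 1 with daunorubicin replicate 1), 57.4% (1 with 2), 56.7% (2 with 1) and 56.3% (2 with 2). All 4 shares between drugs were lower than both shares between replicates. Among members the replicate shares were 89.1% for aclarubicin and 75.6% for daunorubicin, close to those of all shared regions. A member could thus keep its mean rank while its replicates differed. All 4 percentiles lay within 20 points of each other in 1207 members, which are 29.3% of all shared regions, and within 10 points in 427 members. In 171 members they spanned 40 points or more, with 78.0 points as the widest span. At 1437 members the percentiles of the 2 drugs overlapped. The counts of 427, 171 and 1437 members were not set beside the same counts over all shared regions, so nothing particular to members is read from them.

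Ranks kept in 1 pair of libraries were measured again in the pair that had not been used to choose them. Regions chosen within 20 points in aclarubicin replicate 1 and daunorubicin replicate 1 numbered 2293, and 69.0% of them lay within 20 points in the other 2 libraries. Over all shared regions the same 2 libraries gave 56.3%, and over the 1828 regions not chosen they gave 40.3%. The other 3 choices gave 70.3%, 71.2% and 68.3% for the chosen regions. The mean of the 4 choices was 69.7% ± 1.3 (SD over the 4 choices, which share libraries), against a mean of 56.5% over all shared regions. In each of the 4 choices the chosen regions gave a higher share than all shared regions in the same libraries. The 4 choices are only 2 comparisons, each read in both directions. Exchanging the libraries of choice and of measurement left the kept regions the same, 1583 in 1 comparison and 1663 in the other. A higher share in 1 direction therefore makes the share in the reverse direction higher too. The SD is thus not a spread over 4 separate results. The chosen regions are not the members, and the measure is the same fold percentile that the rule uses. Position on the scale can also raise the agreement, and its part was not tested. These shares therefore describe how the rank repeated, and they are no separate support for the members.

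Keeping rank was most frequent at the top of the order, and the low end stood out less clearly. By the mean of the 4 percentiles, 528 of the 583 regions from 80 to 100 were members (90.6%), as were 498 of the 584 regions from 0 to 20 (85.3%). From 40 to 60 the share was 44.4%, or 487 of 1096 regions. A mean near 0 or 100 can only come from ranks that are alike, so this way of sorting raises the share at the ends by its construction. Sorted by the aclarubicin percentile alone, the share of members was 60.1% in the lowest 20 points, 56.1% in the middle 20 points and 70.3% in the highest. Sorted by the daunorubicin percentile alone, it was 64.3%, 52.8% and 69.4%. On both scales the highest bin held the largest share of members and the middle bin the smallest. A region at either end of a bounded scale has less room to move than a region in the middle. Sorting by a single drug thus also raises the shares at the ends, and nothing particular to strong regions is read from them. By the aclarubicin percentile the lowest bin lay near the 60.4% of all shared regions and the 59.0% of the bin from 60 to 80.

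The strongest members were named after leaving out members whose 4 percentiles spanned over 20 points. Their nearly equal ranks follow from this choice and from their place at the top of the scale. Whether the fragments at these regions map to a single place in the genome was not examined. The word strongest thus refers to the fold only. The first, chr2:243153696-243154078, held percentile 100 in all 4 libraries. Its folds were 39.1 and 37.4 under aclarubicin and 37.8 and 37.1 under daunorubicin, nearly equal between the drugs. Its peaks were 378 and 380 bp wide under aclarubicin and 372 and 355 bp wide under daunorubicin, and its 4 summits lay within 9 bp. It had 808 and 785 fragments over the summit for aclarubicin against 345 and 303 for daunorubicin, so its counts separated the drugs while its rank did not. The second, chr1:91852777-91853151, had summits within 6 bp, and 506 and 553 fragments over them under aclarubicin against 460 and 453 under daunorubicin. The third, chr14:106765017-106765679, had widths of 629 and 653 bp under aclarubicin and of 639 and 604 bp under daunorubicin. Its fragments were 1043 and 996 for aclarubicin against 518 and 696 for daunorubicin. All these counts are raw. Divided by a relative depth, as described below, the ratios of daunorubicin to aclarubicin were 0.460, 0.978 and 0.667 at the 3 members in turn. At the second the scaled counts of the drugs were thus nearly equal. At these 3 members the widths of the drugs differed by less than 20 bp between their means, far less than at a typical member.

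Among members whose 4 percentiles spanned at most 20 points, the 3 nearest to the middle of the order had narrower peaks under daunorubicin. At chr19:2019504-2020075 the folds were 10.6 and 10.9 for aclarubicin and 7.61 and 8.35 for daunorubicin, which are percentiles of 53.0, 58.5, 45.3 and 43.4. The peak was 485 and 572 bp wide under aclarubicin and 302 and 333 bp wide under daunorubicin, and the 4 summits lay within 34 bp. At chr15:77265615-77266073 the percentiles were 60.7 and 51.8 under aclarubicin and 43.0 and 43.9 under daunorubicin, with widths of 437 and 424 bp against 261 and 262 bp. At chr19:49474080-49474619 they were 61.7 and 44.2 under aclarubicin and 50.2 and 44.5 under daunorubicin, with widths of 519 and 533 bp against 386 and 446 bp. In all 3 both aclarubicin peaks were wider than both daunorubicin peaks. The same held at 77.6% of members from percentile 40 to 60 and at 67.6% of all shared regions. It is thus not particular to these 3 regions.

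The members whose 4 percentiles were closest together, away from the ends, were on chromosomes 8, 3 and 19. The closest was chr8:98800116-98800619, with percentiles of 57.9, 54.5, 57.1 and 57.9, in the order aclarubicin 1, aclarubicin 2, daunorubicin 1 and daunorubicin 2. Its fragments over the summit were 90 and 91 under aclarubicin and 53 and 51 under daunorubicin, so the counts separated the drugs where the ranks did not. The next was chr3:13689718-13690137, with percentiles of 27.6, 23.8, 24.2 and 25.3 and with 112, 109, 42 and 47 fragments in the same order. Then came chr19:14459217-14459710, with percentiles of 24.4, 23.9, 25.3 and 27.9 and with 85, 88, 43 and 43 fragments.

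A kept rank did not mean an equal number of fragments. The lists hold no read totals, so the fragments were divided by a relative depth recovered from each list's background, which is an assumption. So divided, the fragments over the summit under daunorubicin were a median of 0.607 times those under aclarubicin over the 2491 members, which is -0.72 on the log2 scale. Over all shared regions the median was 0.615. From the 10th to the 90th percentile of members the ratio ran from 0.432 to 0.922, and 150 members (6.02%) had a ratio of at least 1, where 14.5% of all shared regions did. The 4 single-library ratios had medians of 0.537 and 0.533 for daunorubicin replicate 1 over aclarubicin replicates 1 and 2, and of 0.685 and 0.681 for daunorubicin replicate 2. Between replicates the median ratio was 0.992 for aclarubicin, and 1.26 for daunorubicin replicate 2 over replicate 1. Each of the 4 ratios between drugs was thus farther from 1 than the ratio between replicates of either drug. Both daunorubicin libraries lay below both aclarubicin libraries at 1972 members (79.2%), where all shared regions gave 71.6%, and above both at 36 members (1.45%), where all shared regions gave 7.11%. The rule uses the fold, which is made from these fragments, so nothing is read from the members' shares against those of all regions.

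The ratio was almost the same at each level of strength. Its median was 0.653 for members from percentile 0 to 20, and lay between 0.594 and 0.602 in the 4 bins above. Movers that ranked higher under daunorubicin had a median ratio of 1.04, and those that ranked higher under aclarubicin one of 0.392, as the rule makes them differ. The depth behind these ratios was recovered from the background of each list under an assumed formula, with aclarubicin replicate 1 as the unit. It came to 0.997 and 0.814 for the daunorubicin replicates and to 1.04 for the second aclarubicin replicate. The local background moved with the ratio. Under the members it was a median of 4.37 and 4.40 times the lowest background of the list in the aclarubicin libraries, and 2.86 and 3.19 times in the daunorubicin libraries. Its part in the fragment ratio was not tested.

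**Figure D2:**
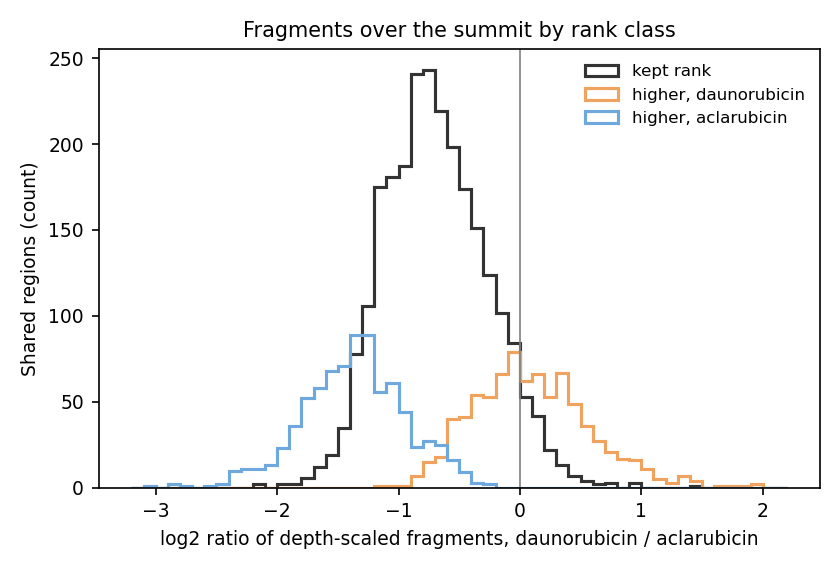
Histogram of the log2 ratio of fragments over the summit, each divided by the recovered relative depth, daunorubicin over aclarubicin (x axis), with the number of shared regions per bin (y axis), for regions that kept rank and for both kinds of mover. The rank-keeping regions centre on a median of -0.72, to the left of the grey line at 0 that marks equal numbers, and 150 of them lie at or to the right of it.

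Peak width was not part of the rule, and members were wider under aclarubicin. The median width over members was 434 and 449 bp in aclarubicin replicates 1 and 2, and 339 and 362 bp in daunorubicin replicates 1 and 2. The libraries of the drugs did not overlap. The means were 442 ± 10.6 bp under aclarubicin and 351 ± 16.3 bp under daunorubicin (SD, n = 2 each), so members were 91 bp wider under aclarubicin, where the pooled SD between replicates was 13.7 bp. An exact permutation test (two-sided) gave p = 0.33, the lowest value within reach of 2 libraries against 2. At 1779 members (71.4%, 95% Wilson interval 69.6% to 73.2%) both aclarubicin peaks were wider than both daunorubicin peaks, where 67.6% of all shared regions were. The reverse held at 43 members (1.73%), where 3.01% of all shared regions were wider in both daunorubicin libraries. The members' shares are thus near those of the shared regions as a whole. Movers had median widths of 426 and 441.5 bp under aclarubicin, and of 333.5 and 353 bp under daunorubicin. The width difference between the drugs is thus not particular to the members. Wilson intervals here treat regions as independent, which neighbours are not.

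Stronger members were wider in each library. From percentile 0 to 20, the median width was 381 and 395 bp under aclarubicin and 302 and 317 bp under daunorubicin. From 80 to 100 it was 482 and 498 bp under aclarubicin and 397 and 421 bp under daunorubicin. The difference between the drugs lay between 78.8 and 99.5 bp in all 5 bins. Even the strongest daunorubicin bin was narrower than the middle bin under aclarubicin, at 435 and 451 bp.

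**Figure D3:**
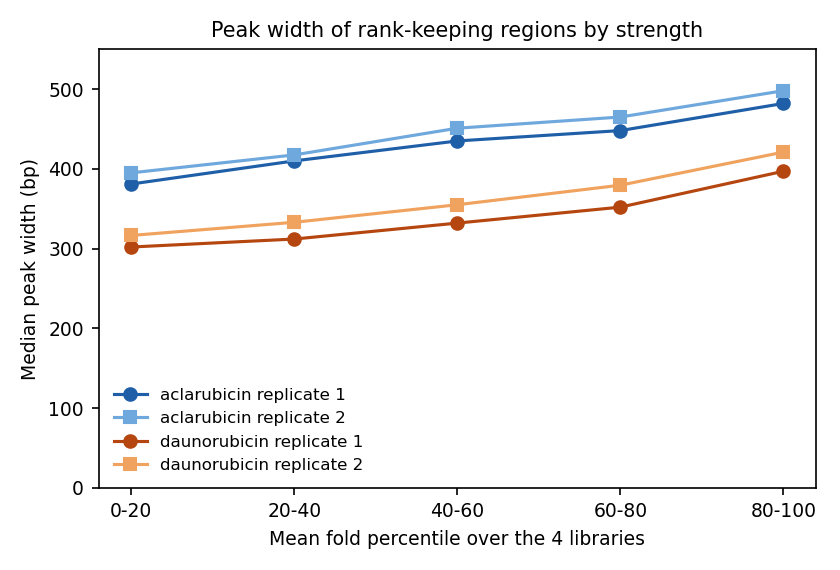
Median peak width in bp (y axis) of the rank-keeping regions in 5 bins of their mean fold percentile (x axis), with 1 line per library and 464 to 528 regions per bin. Both aclarubicin lines lie above both daunorubicin lines in each bin, and all 4 lines rise from left to right.

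The ranks by width were compared in the same way. The mean width percentiles of the 2 drugs lay within 20 points at 1763 members (70.8%, 95% Wilson interval 69.0% to 72.5%), where 62.0% of all shared regions gave this result. For movers the share was 48.6% in the group higher under daunorubicin and 48.6% in the group higher under aclarubicin. Width and fold come from the same pile of fragments, so this measure is not fully separate from the rule. Members were 8, 7.5, 5.5 and 9 bp wider than movers by the median, in aclarubicin 1 and 2 and daunorubicin 1 and 2. The mean of these was 7.50 ± 1.47 bp (SD over 4 libraries), higher in 4 of 4 libraries (exact two-sided sign-flip p = 0.13, the smallest that 4 libraries allow). With a limit of 10 points for members it was 3 bp, higher in only 3 of 4 libraries (exact sign-flip p = 0.375). Within bins of 20 points of the fold percentile the mean was 5.7 bp (exact sign-flip p = 0.13), but single bins ranged from -12.5 to 28.5 bp. The movers of each direction differed more from each other than from members. Under aclarubicin, those higher under daunorubicin had medians of 379 and 391 bp and those higher under aclarubicin 467 and 476 bp.

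A few members departed far from the usual width. The largest excess under aclarubicin was at chr20:30311205-30312360, which was 1094 and 1149 bp wide under aclarubicin and 442 and 396 bp under daunorubicin, with all 4 summits within 11 bp. At chr1:193090849-193091898 the widths were 879 and 1014 bp against 326 and 247 bp. Here aclarubicin replicate 2 had its summit 518 bp from that of replicate 1, which lay close to both daunorubicin summits. In the other direction, chr11:64780896-64781924 was 405 and 560 bp wide under aclarubicin and 1029 and 719 bp under daunorubicin, with summits spread over 493 bp. At chr17:47109476-47110273 the widths were 341 and 572 bp under aclarubicin and 716 and 670 bp under daunorubicin. The third, chr2:132559312-132560083, rested on 1 library: its widths were 284 and 269 bp under aclarubicin and 702 and 293 bp in daunorubicin replicates 1 and 2.

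Summits lay as close together between the drugs as between replicates. Over members, the median distance between summits was 13 bp for the 2 aclarubicin replicates and 17 bp for those of daunorubicin. Across drugs the 4 pairs of libraries gave 15, 15, 16 and 16 bp, between the replicate values. On average the pairs of different drugs were 0.5 bp farther apart than the pairs of the same drug, against an SD of 2.83 bp between the 2 replicate pairs. The share of members with summits at most 20 bp apart was 69.7% and 57.4% for the replicate pairs, and between 60.6% and 61.1% for pairs of different drugs. With single libraries left out, the difference lay between -2 and 4 bp. The value of 4 bp came without daunorubicin replicate 1, when the aclarubicin replicates are the only pair of the same drug.

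**Figure D4:**
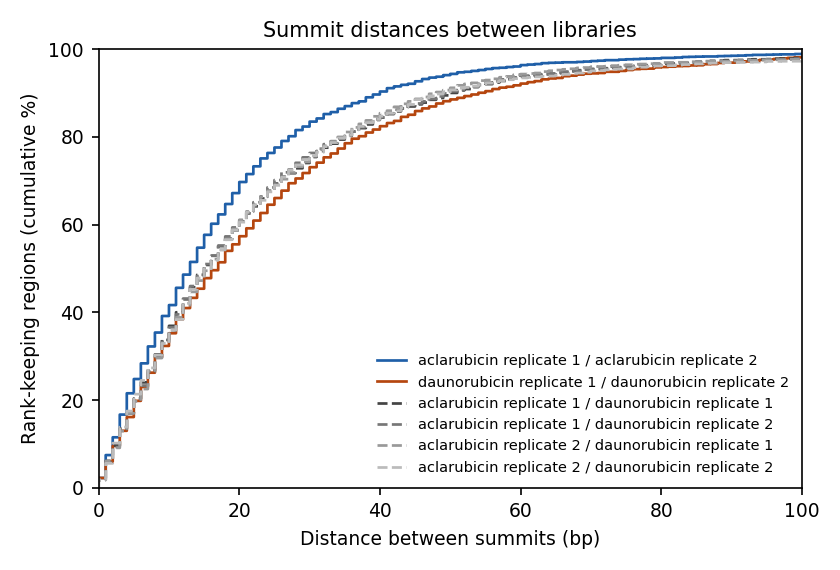
Cumulative percentage of rank-keeping regions (y axis) whose summits lie within a given distance in bp (x axis, shown to 100 bp), for 2 replicate pairs (solid lines) and 4 pairs of different drugs (dashed lines). The dashed lines run together between the aclarubicin replicates, with a median of 13 bp, and the daunorubicin replicates, with a median of 17 bp.

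All 4 summits lay within 50 bp at 1883 members (75.6%, 95% Wilson interval 73.9% to 77.2%), where 73.7% of all shared regions gave this result. At movers it was 72.1% for those higher under daunorubicin and 69.3% for those higher under aclarubicin. The median span of the 4 summits over members was 32 bp. It was 49 bp in members from percentile 0 to 20, 40, 33 and 27 bp in the bins between, and 23 bp in those from 80 to 100. The span was thus smallest at the strongest members, and 150 members (6.02%) had all 4 summits within 10 bp, near the 5.61% of all shared regions. In the strongest bin the median distance was 9 bp between aclarubicin replicates, 11 bp between daunorubicin replicates, and 10 to 12 bp between drugs. In the weakest bin it was 20, 26 and 23 to 26 bp.

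A small number of members had their summits in different places under the drugs. In 1057 members (42.4%) the replicate summits lay within 20 bp in both drugs, where 40.3% of all shared regions gave this result. Among these the mean summits of the drugs were a median of 9 bp apart. They lay more than 50 bp apart at 16 members (1.51%) and more than 100 bp apart at 6 (0.568%). Over all 1662 shared regions with such replicate summits the shares were 1.56% and 0.421%, near those of the members. Among the movers, 10 of 605 were past 50 bp and 1 was past 100 bp. The largest shift in a member was chr14:107238788-107240004, where 1 peak of 1165 to 1194 bp was called in each library. Its summits were at 107239034 and 107239039 under aclarubicin and at 107239765 and 107239756 under daunorubicin, 724 bp apart. This member had more fragments under daunorubicin, with 176 and 204 at the summit against 150 and 150. The second was chr6:138724525-138725540, with summits at 138725254 and 138725264 under aclarubicin and at 138724698 and 138724705 under daunorubicin, 558 bp apart. Its peak was 879 and 979 bp wide under aclarubicin, 1016 bp in daunorubicin replicate 1 and 378 bp in replicate 2. The third, chr9:138865724-138866436, was a weak region with percentiles from 2.67 to 6.07, and its drug summits were 377 bp apart.

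Among members whose 4 percentiles spanned at most 20 points, the 3 with the lowest mean percentile had summits far apart. At chr22:23244619-23246079 the percentiles were at most 0.0971 in each library, and the folds were 2.56 and 2.45 for aclarubicin against 2.71 and 3.27 for daunorubicin. Its widths were 606, 1238, 241 and 312 bp in the order of libraries used above, and its summits were spread over 1370 bp, the widest span of any member. At chr1:16956064-16956754 the summits were spread over 287 bp, and at chr9:133607459-133608623 over 753 bp. These 3 regions had percentiles of at most 0.291 in all libraries, without a common summit. In each library some other member ranked lower than they did. Members from percentile 0 to 20 lay on a higher local background than those of the next bin. In aclarubicin replicate 1 it was 5.53 times the lowest background of the list against 3.84 times, with 59 and 65 fragments over the summit, and in daunorubicin replicate 1 it was 3.79 against 2.66 times, with 36 and 34 fragments.

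Nearly all members were single peaks: 2485 of 2491 had exactly 1 peak in every library (99.8%), as had 99.7% of all shared regions. The merged regions had a median length of 484 bp and ran from 259 to 2263 bp. Another shared region lay within 10 kb of 320 members (12.8%, 95% Wilson interval 11.6% to 14.2%), where 11.5% of all shared regions had one. The share was 10.4% for movers higher under daunorubicin and 8.45% for those higher under aclarubicin. Strength moved with this share. It was 22.1% in members from percentile 0 to 20, and 14.7%, 10.9%, 8.75% and 8.33% in the bins above. Movers of the same bins had shares of 12.8%, 11.9%, 7.55%, 9.25% and 5.45%, lower than the members in 4 of 5. The lowest and highest of these rest on only 86 and 55 movers.

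Seen from the distance, 67.9% of the 106 shared regions with a neighbour closer than 2 kb were members, and 67.4% of the 368 with a neighbour at 2 to 10 kb. The share was 63.4% at 10 to 50 kb, 59.2% at 50 to 200 kb and 54.8% at 200 kb to 1 Mb. It was 60.6% among the 254 regions without a shared neighbour within 1 Mb. Strength moved with the neighbour share, so bins of mean percentile are given from lowest to highest. Of regions with a neighbour within 10 kb, 90.9%, 54.4%, 53.5%, 54.9% and 93.6% were members. Without one the shares were 83.8%, 48.4%, 43.5%, 56.4% and 90.3%. The part of strength in the shares by distance was not tested. When a member's nearest shared region was 2 to 10 kb away, that neighbour was a member in 71.0% of cases, against 59.2% for the neighbours of movers. At 10 to 50 kb these shares were 63.1% and 65.7%, and closer than 2 kb they were 69.4% and 64.7%. The closest pair of members lay on chromosome 8, at chr8:125437538-125437975 and chr8:125438155-125438652, 179 bp apart. The first was weak, with percentiles of 7.44 and 17.7 under aclarubicin against 13.7 and 5 under daunorubicin. The second was strong, with 81.6 and 71.6 under aclarubicin against 55.8 and 71.7 under daunorubicin. The order within the pair was the same in all 4 libraries.

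Members were found on each chromosome, from 19 on chromosome 13 to 310 on chromosome 1. The share of shared regions that kept rank was highest on chromosome 13 (70.4%), where only 19 of 27 regions stand behind it (95% Wilson interval 51.5% to 84.1%). It was 66.8% on chromosome 19 (265 of 397, 95% Wilson interval 62.0% to 71.2%), a chromosome known for its high gene density, 66.1% on chromosome 20, 65.9% on chromosome 22 and 65.7% on chromosome 17 (186 of 283, 60.02% to 71.0%). It was lowest on chromosome 10 (73 of 149, 49.0%, 41.1% to 56.9%). Chromosome 18 gave 52.6% (20 of 38, 37.3% to 67.5%) and chromosome 7 gave 52.8% (95 of 180, 45.5% to 59.9%). The intervals of chromosomes 7, 10 and 19 leave out the 60.4% of all shared regions, and 20 of the 23 intervals include it. On chromosome 10, 31.5% of shared regions were movers higher under daunorubicin and 19.5% were movers higher under aclarubicin. On chromosome 22 the figures were 24.0% and 10.1%. Libraries are the replicates here, not regions, so these shares are descriptions without a test.

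**Figure D5:**
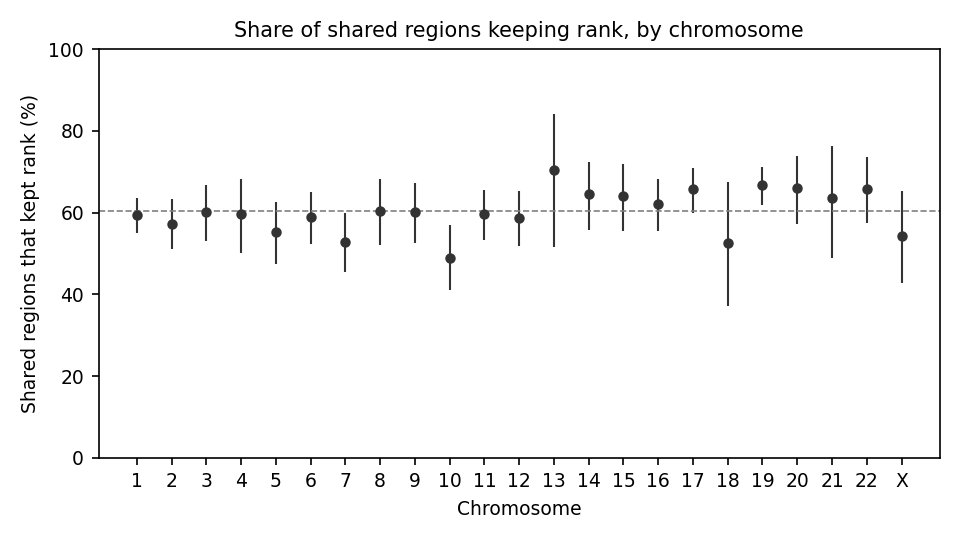
Percentage of shared regions that kept rank (y axis) on each chromosome (x axis), with 95% Wilson intervals as bars and the 60.4% of all shared regions as a dashed line. Chromosome 19 lies above the line, chromosomes 7 and 10 lie below it, and the intervals of the other 20 include it.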

How the data were processed

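The deposited data are 1 narrowPeak list per library, with 10 columns and no header, and peaks were listed for each library separately. The submitters' processing notes name Bowtie2, Picard, bedtools and the builds GRCh37 and hg19; the peak caller, its threshold and any control library are not given in the sources used here. The authors' fold column is a ratio over local background. The deposited −log10 p and −log10 q belong to each peak. The deposited score follows the −log10 q and was not used. The lists held 10633 and 10711 peaks for aclarubicin and 5886 and 6638 for daunorubicin, with no read totals. Coordinates are 1-based, in the build of the files. No genome of that build was used here, so the planned motif count was not made.

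Peaks were merged with an overlap of at least 1 bp, and the peak with the highest fold stood for a region in a library. Percentiles use mean ranks for ties. Fragments k and background λ were solved from fold = (k + 1)/(λ + 1) and a Poisson p, an assumption about the caller. All peaks (100%) gave a whole k, to a tolerance of 0.02. The method was tested on 5710 peaks simulated with the same formula, over a range of k and λ that the strongest members exceed. That test checks the solving step and cannot show that the caller used this formula. Merged regions were checked against bedtools 2.31.1, with 0 of 13959 different. Relative depth is the lowest λ over the shortest width of a list. The members, lists and tests were chosen with earlier results of these data known. Named regions followed a rule: the highest, middle and lowest mean percentile, the smallest span, both sides of the limit, the largest summit and width differences, and the closest pair. Where the replicates share a source is not stated beyond the label of biological replicates, so p-values concern these libraries only. A p-value at the smallest value within reach does not measure how large the spread between libraries is. The sign-flip test of members against movers takes the 4 libraries of both drugs together, over the same regions. Python 3.11.15, numpy 2.4.6, pandas 2.3.3, scipy 1.17.1 and matplotlib 3.10.9 were used.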

Additional observations from a re-analysis of the deposited data

How the results depend on the processing

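The number of members moved by over 1.5 times with a limit of 10 points (1494 members, against 2491) and when the largest of the 4 single-library differences had to be below 20 points (1305, all of them among the 2491). With each replicate left out in turn the number lay between 2511 and 2962. More regions are shared by fewer libraries, and the share of members among them was 58.4% to 59.6%, against 60.4% with all 4 libraries. Ranked by recovered fragments there were 2842 members (69.0%), of which 2165 were the same regions. Ranked by −log10 p there were 2537 members, of which 2128 were the same regions. The share kept in libraries not used for the choice was 49.2% at 10 points, 82.1% at 30 points and 72.6% by −log10 p; over all shared regions these settings gave 33.6%, 73.0% and 57.9%. The width difference between drugs was 81 to 103 bp with single replicates left out. It was 17.8 bp in the 150 members with a fragment ratio of at least 1, a subset chosen after seeing the data, on a ratio that comes from the same fragments as the width. With the replicate number as a block it stayed at 91 bp, by construction, with a sign-flip p of 0.5, the smallest that 2 pairs allow (exact). The replicate differences of the drugs correlated at -0.05 across the 4121 regions, so the numbers were not used to pair libraries. The excess of summit distance between drugs ranged from -2 to 4 bp with single replicates left out. The width excess of members over movers was 6.67 to 9.83 bp with single replicates left out, 3 bp at a limit of 10 points (higher in 3 of 4 libraries, exact sign-flip p = 0.375), 2.75 bp when each peak had to reach 10 in −log10 q, and 15.8 bp with ranks by −log10 p. The neighbour share was 5.62% within 5 kb and 23.0% within 20 kb, since a longer reach takes in more regions. The motif alternatives were not run. Apart from these, the cause of the changes was not tested. A region without a peak in some library has no value in these lists, so rank changes that ended a call are not seen.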
